A study of Homo sapiens with 36 samples.

Results

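The response common to knockout of MEIS1 and knockout of MEIS2 was measured in cultured human neural stem cells (hNSC), 48 h after transduction. The 12 libraries of both knockouts, 6 of MEIS1-KO and 6 of MEIS2-KO, were set against the 6 libraries of ctrl-KO, the knockout control, out of 36 RNA-seq libraries in the series. The other 18 libraries come from CRISPR-activation of MEIS1 (MEIS1-OE) or MEIS2 (MEIS2-OE) and its control (ctrl-OE), with 6 libraries each, and share no sample with the knockouts. All 18 knockout libraries come from hNSC that received a lentiviral vector with Cas9, the nuclease that cuts DNA at a site matching its guide RNA, together with guide RNA. MEIS1-KO and MEIS2-KO each received a mixture of 2 guides against the gene, and ctrl-KO received a guide without a target in the genome. The cells were read as a pool of edited and unedited cells, without isolation of clones. Since the guides of both knockouts cut the genome and the control guide does not, the loss of a MEIS factor and the cutting itself cannot be told apart in this comparison. The labels do not state whether the 6 libraries of a condition come from separate cultures, so the p-values measure the spread between these libraries, which may be technical. In bulk RNA, fewer cells of one type and less RNA per cell cannot be told apart either. Of 28516 gene symbols counted, the 18343 with at least 10 counts summed over the 18 libraries were tested.

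MEIS1 and MEIS2 are paralogous transcription factors of the TALE class, whose homeodomain carries an insertion of a few amino acids and binds DNA mostly together with PBX and HOX proteins. They act in the patterning and growth of many embryonic tissues, the nervous system among them, and MEIS1 lies in a region associated with restless legs syndrome. Neural stem cells are dividing progenitors kept by SOX, PAX6 and Notch-dependent factors, and p53 is the factor that halts or kills dividing cells after DNA breaks, replication stress and other damage.

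The guides decide what was cut, so they are given with their positions on GRCh37. Capitals mark the PAM, the 3 genomic bases next to the target that Cas9 requires and that the guide RNA does not contain.
MEIS1-g2: ggtggccacacgtcacacagTGG
MEIS1-g3: aaaaagcgtcacaaaaagcgTGG
MEIS2-g2: cccactcagcaggcaccccaGGG
MEIS2-g5: gttctgatgtcaggataccaAGG
MEIS1-g2 matched chr2:66691310-66691332 on the plus strand, in coding sequence of exon 7 of 13 of MEIS1, and MEIS1-g3 matched chr2:66739346-66739368 on the plus strand, in coding sequence of exon 8. MEIS2-g2 matched chr15:37376024-37376046 on the minus strand, in coding sequence of exon 7 of 12 of MEIS2. The cut computed for MEIS2-g5, at chr15:37376084-37376106 on the plus strand, fell in the intron, 14 bases from exon 7. Each guide with its PAM, exactly as printed, had 1 match on the chromosome of its target. Other chromosomes, other PAM sequences and sites with mismatches were not searched.

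Reads counted on genes ranged from 15429985 to 22880347 per library over the 18 libraries, with a median of 20131519.5, and the biological coefficient of variation was 0.0867. No pair of libraries within a condition agreed within counting noise, the lowest chi-square per degree of freedom being 2.74. The first principal component of the 1000 most variable genes held 44.3% of their variance, and its ends were ctrl-KO replicate 2 and MEIS1-KO replicate 6. Loadings on it followed the GC content of transcripts across 858 genes (r = 0.67, across genes, which are not independent). GC content moved with the comparison too: the median log2 fold change was -0.06, -0.02, 0.02 and 0.10 in the 4 quartiles of genes ordered from low to high GC. A fit with a GC offset per library and a fit without those 2 end libraries were both chosen after the data were seen. Both are given below for the counts over all genes. For the lists, the GC offset is given for most and the fit without the end libraries for some.

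MEIS1 mRNA was lower in MEIS1-KO and MEIS2 mRNA lower in MEIS2-KO, while the change of each paralog in the other knockout did not pass the test. MEIS1 (chr2:66660584-66801001, GRCh37) ranged from 6.16 to 10.6 CPM (counts scaled to a common library size) in MEIS1-KO with a median of 8.49, from 20.2 to 23.3 CPM in MEIS2-KO with a median of 21.9, and from 22.7 to 26.2 CPM in ctrl-KO with a median of 24.3. All MEIS1-KO libraries lay far below the others, and MEIS2-KO and ctrl-KO overlapped in part. MEIS2 (chr15:37181405-37393500) ranged from 20.8 to 23.9 CPM in MEIS1-KO with a median of 22, from 10.1 to 13 CPM in MEIS2-KO with a median of 11.7, and from 22.4 to 26.1 CPM in ctrl-KO with a median of 25.1. Here the MEIS2-KO libraries stood apart, and MEIS1-KO overlapped the control. The change of MEIS1 in MEIS1-KO was -65.1%, and that of MEIS2 in MEIS2-KO was -52.6%.

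Pooled over both knockouts, the log2 fold change was -0.84 for MEIS1 (SE 0.07, edgeR adjusted p = 4.05e-07) and -0.61 for MEIS2 (SE 0.05, edgeR adjusted p = 2.82e-07). For MEIS1 this average combines -1.52 in MEIS1-KO with -0.16 in MEIS2-KO, the latter not passing the test (edgeR adjusted p = 0.259). For MEIS2 it combines -0.15 in MEIS1-KO (edgeR adjusted p = 0.272) with -1.08 in MEIS2-KO. When the 12 knockout libraries were fitted as a single group, their spread in MEIS1 became so wide that the call was lost (edgeR adjusted p = 0.0789).

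**Figure D1:**
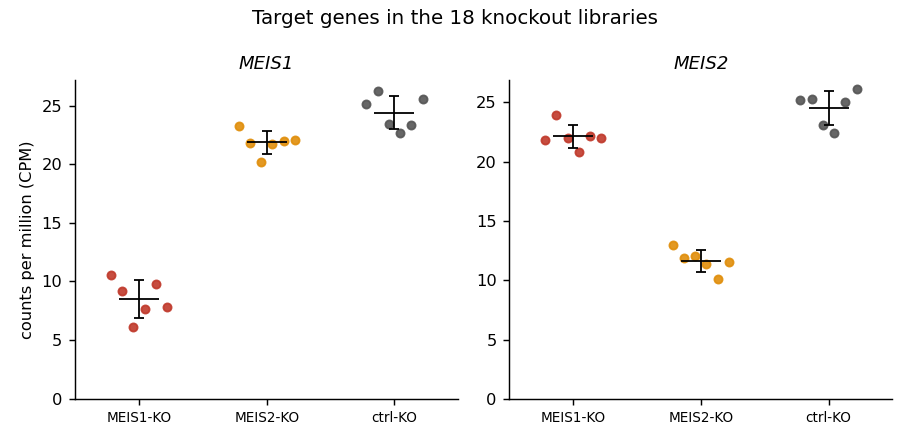
CPM of MEIS1 (left) and MEIS2 (right) in the 18 knockout libraries, one point per library, with the mean and SD of each group of 6 as lines. Each gene is low where it is the target, with 6.16 to 10.6 CPM for MEIS1 in MEIS1-KO and 10.1 to 13 CPM for MEIS2 in MEIS2-KO, and lies near the control in the other knockout.

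Some other members of the TALE class were lowered as well. Of 17 tested TALE genes, 7 were lowered, the 2 targets included, 10 did not pass and none was raised (median log2 fold change -0.11, against 0.00 over all genes tested), where 3.72% of all genes were lowered and 4.14% raised (given with the counts over all genes below). With the GC offset 8 were lowered and 1 was raised, and without both end libraries 5 were lowered. Besides the targets the 7 included IRX2, an Iroquois factor, the MEIS partners PBX2 and PBX3, and TGIF2. IRX2 ranged from 137 to 160 CPM in MEIS1-KO (median 142), from 116 to 148 CPM in MEIS2-KO (median 133) and from 161 to 185 CPM in ctrl-KO (median 171). No knockout library reached the lowest control, and the pooled log2 fold change was -0.30 (SE 0.05, edgeR adjusted p = 0.000193). The values of PBX2 (-0.11), PBX3 (-0.16) and TGIF2 (-0.10) were small, and the call of PBX2 was lost without ctrl-KO replicate 5 (edgeR adjusted p = 0.0553) or ctrl-KO replicate 6 (edgeR adjusted p = 0.0540). The close relatives MEIS3 (0.15), PKNOX1 (-0.02) and PKNOX2 (-0.03) did not pass.

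Over all genes, 760 were raised (4.14% of those tested) and 682 were lowered (3.72%) at an adjusted p under 0.05, and 3837 had an unadjusted p under 0.05. Most changes were small. Only 154 genes rose by more than 0.58 on the log2 scale (0.84% of those tested) and 39 were lowered by more than that (0.213%). The median log2 fold change of raised genes was 0.33, made of 0.28 in MEIS1-KO and 0.38 in MEIS2-KO, and that of lowered genes was -0.22, made of -0.18 and -0.26. For 128 genes (0.698% of those tested) all 12 knockout libraries lay above all 6 controls, and 125 of the raised genes were among them. For 90 genes (0.491%) all 12 lay below all 6 controls, and 87 of the lowered genes were among them. The count of lowered genes rested on the controls: it was 447, 437, 425 and 443 without ctrl-KO replicate 1, 2, 5 or 6. With the GC offset, 1261 genes were raised and 1164 lowered, and 687 of the 725 raised and 636 of the 662 lowered genes with a GC value were among them. Without the libraries at both ends of the first component, 712 were raised and 594 lowered, and 605 and 472 of the calls above were among them. With the replicate number as a block, 1131 were raised and 1157 lowered, among them 759 of the 760 and 681 of the 682.

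Taken one at a time, MEIS1-KO differed from ctrl-KO in 351 genes (1.91% of those tested) and MEIS2-KO in 1750 genes (9.54%). These comparisons share the 6 control libraries, so their values are given side by side, and no overlap or correlation between them is given as a result. Where both values of a gene are set beside each other below, the controls drop out of their difference. The count for MEIS1-KO fell to 165 without MEIS1-KO replicate 3, to 202 without MEIS1-KO replicate 4, and to 215, 212 and 209 without ctrl-KO replicate 1, 3 or 6. It rose to 561 with DESeq2, to 690 with the replicate number as a block and to 951 with the GC offset. The count for MEIS2-KO moved too, from 1185 without MEIS2-KO replicate 4 to 2552 without MEIS1-KO replicate 6.

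Among the genes raised in both knockouts, GREM1, a secreted antagonist of BMP, and MAMDC2, which encodes a protein with MAM domains, were both more than 2-fold higher than in control. The 15 raised genes with the smallest p among those past 0.58 and with a mean of at least 1 CPM included CSMD3, RGS9, ANXA1, GREM1, ATF3, MAMDC2, CD44, DKK2, RAPGEF3, RGS5, FOSL1, HBEGF, SPP1 and AK056105. For 13 of them no knockout library overlapped the controls, and for CD44 and AK056105 11 of 12 lay above every control.

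GREM1 (chr15:33010205-33037307) ranged from 20.5 to 52.5 CPM in MEIS1-KO (median 31.3), from 35.8 to 57.2 CPM in MEIS2-KO (median 40.7) and from 10.6 to 17.3 CPM in ctrl-KO (median 14.5). Both knockouts were high and the control low and narrow, at a log2 fold change of 1.40 (SE 0.16, edgeR adjusted p = 1.24e-05). MAMDC2 ranged from 8.52 to 14.7 CPM in MEIS1-KO (median 10.8), from 9.71 to 15.2 CPM in MEIS2-KO (median 12.1) and from 4.48 to 6.16 CPM in ctrl-KO (median 5.98). Its knockout libraries lay wholly above the control, by 1.05 on the log2 scale (SE 0.12, edgeR adjusted p = 1.25e-05).

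ANXA1, a phospholipid-binding protein that dampens inflammation, ranged from 94.6 to 146 CPM in MEIS1-KO (median 134), from 115 to 157 CPM in MEIS2-KO (median 139) and from 69.2 to 90.6 CPM in ctrl-KO (median 82.3). Its groups did not overlap, although 1 MEIS1-KO library lay close to the control range (pooled log2 fold change 0.72, SE 0.08, edgeR adjusted p = 6.61e-06). CD44, the receptor of the matrix sugar hyaluronan, ranged from 10.7 to 20.5 CPM in MEIS1-KO (median 15.4), from 16.9 to 21.0 CPM in MEIS2-KO (median 17.6) and from 8.11 to 10.8 CPM in ctrl-KO (median 9.10). One MEIS1-KO library reached into the control range, and the log2 fold change was 0.84 (SE 0.10, edgeR adjusted p = 1.97e-05). SPP1, the secreted adhesion protein osteopontin, had a log2 fold change of 0.85 (SE 0.11, edgeR adjusted p = 4.89e-05), and HBEGF, a ligand of the EGF receptor, of 0.61 (SE 0.08, edgeR adjusted p = 3.70e-05). The Wnt modulator DKK2 rose by 0.83.

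RGS9 and RGS5, which switch off G proteins, rose by 0.61 and 0.62 on the log2 scale, and RAPGEF3, a cAMP sensor that activates the GTPase RAP, rose by 0.68. The study lists RAPGEF3, and SMOC1 among the lowered genes below, as differentially expressed genes with a predicted off-target site of a knockout guide. It does not count them as off-targets of a specific guide, because both MEIS1 and MEIS2 affected them. Whether off-target cutting had a part in their change was not tested here. RGS9 ranged from 11.4 to 13 CPM in MEIS1-KO (median 12.1), from 10.5 to 12.9 CPM in MEIS2-KO (median 12) and from 6.84 to 9.02 CPM in ctrl-KO (median 7.93), so that both knockouts lay together, above the control. CSMD3, a large membrane protein with CUB and sushi domains, changed by 0.59 (SE 0.06, edgeR adjusted p = 5.79e-06), and the transcript AK056105, for which no annotated position was found, by 0.60 (SE 0.08, edgeR adjusted p = 5.46e-05).

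**Figure D2:**
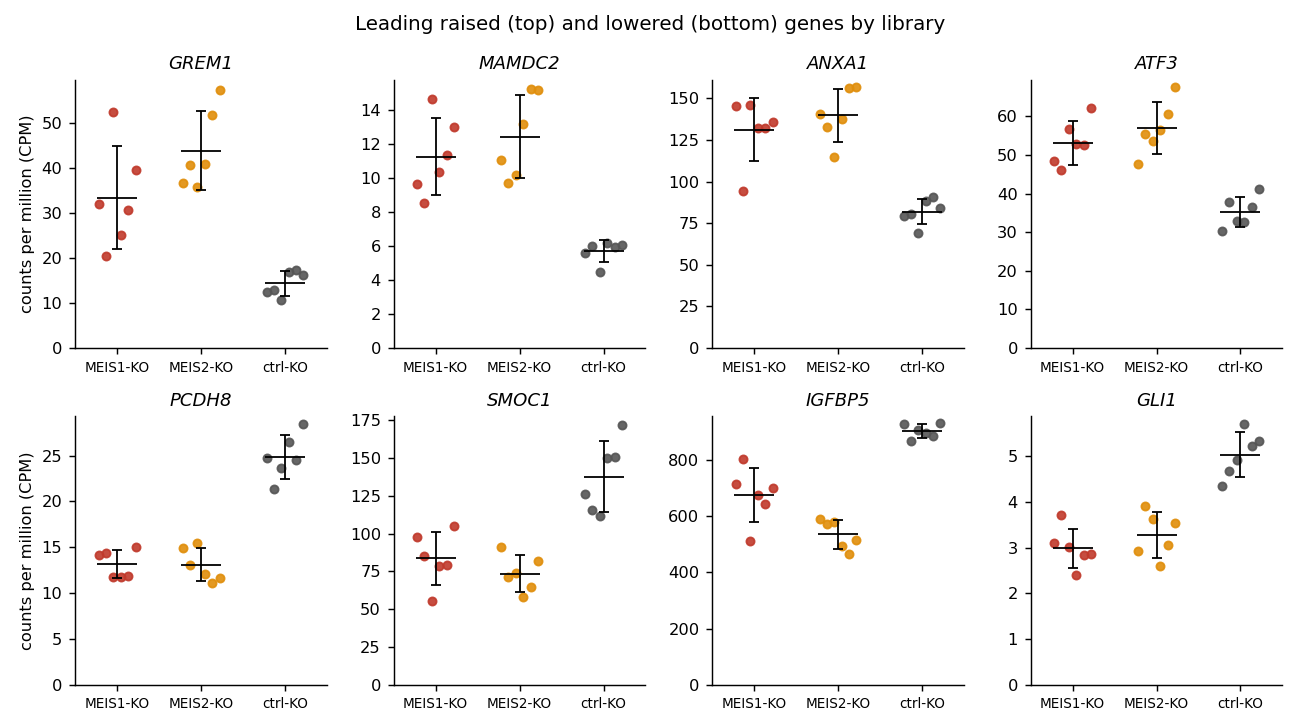
CPM by library for 4 raised genes (top: GREM1, MAMDC2, ANXA1, ATF3) and 4 lowered genes (bottom: PCDH8, SMOC1, IGFBP5, GLI1), one point per library, with the mean and SD of each group of 6. In all 8 panels every point of MEIS1-KO and MEIS2-KO lies on one side of every ctrl-KO point, for example at 11.1 to 15.5 CPM against 21.4 to 28.4 CPM for PCDH8.

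Among the lowered genes, PCDH8, a protocadherin of neurons and early embryos, and IGFBP5, a secreted binder of insulin-like growth factors, led the list beside the targets themselves. By the same rule the 15 lowered genes were PCDH8, MEIS2, MEIS1, IGFBP5, LRRTM3, SMOC1, GLI1, CXCR7, KLHDC8A, PRMT8, TOX, MYB, SLC7A2, LMO3 and SEMA3D. No library overlapped between knockouts and control for PCDH8, IGFBP5, LRRTM3, SMOC1, GLI1 and MYB.

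PCDH8 (chr13:53417024-53422776) ranged from 11.8 to 15 CPM in MEIS1-KO (median 13), from 11.1 to 15.5 CPM in MEIS2-KO (median 12.6) and from 21.4 to 28.4 CPM in ctrl-KO (median 24.6). The knockouts lay on top of each other, far below the control, at log2 fold changes of -0.92 in MEIS1-KO and -0.93 in MEIS2-KO (pooled -0.92, SE 0.08, edgeR adjusted p = 2.82e-07). IGFBP5 ranged from 511 to 802 CPM in MEIS1-KO (median 687), from 466.4 to 589 CPM in MEIS2-KO (median 543) and from 867 to 931 CPM in ctrl-KO (median 900). Its control was narrow and high, and the log2 fold change was -0.59 (SE 0.06, edgeR adjusted p = 5.79e-06). SMOC1, a secreted calcium-binding protein of basement membranes, ranged from 55.3 to 105 CPM in MEIS1-KO (median 82.5), from 57.9 to 91.4 CPM in MEIS2-KO (median 72.7) and from 112 to 172 CPM in ctrl-KO (median 138). All 12 knockout libraries were below the control, by -0.81 on the log2 scale (SE 0.11, edgeR adjusted p = 5.46e-05). Like RAPGEF3, SMOC1 is a predicted off-target gene of the knockout guides in the study.

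GLI1, effector and target of hedgehog signalling, ranged from 2.41 to 3.71 CPM in MEIS1-KO (median 2.93), from 2.60 to 3.91 CPM in MEIS2-KO (median 3.29) and from 4.34 to 5.71 CPM in ctrl-KO (median 5.07). The groups were separate at a low level, with a log2 fold change of -0.69 (SE 0.09, edgeR adjusted p = 6.53e-05). LRRTM3, a synaptic adhesion protein, ranged from 2.46 to 4.56 CPM in MEIS1-KO (median 3.43), from 2.21 to 3.82 CPM in MEIS2-KO (median 3.07) and from 5.46 to 6.98 CPM in ctrl-KO (median 5.74), again without overlap (log2 fold change -0.88, SE 0.11, edgeR adjusted p = 3.60e-05). The transcription factors MYB (-0.71), TOX (-0.67) and LMO3 (-0.67), the latter a LIM-only cofactor, fell by similar amounts. CXCR7, an atypical receptor of the chemokine CXCL12, changed by -0.65 (SE 0.10, edgeR adjusted p = 0.000209). The remaining ones were KLHDC8A, a kelch-domain protein (-0.92), PRMT8, a brain arginine methyltransferase (-0.73), SLC7A2, a carrier of cationic amino acids (-0.62), and SEMA3D, a secreted guidance cue (-0.64).

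Most of the listed targets of p53 were raised. Of 41 genes listed as p53 targets, 31 were raised, 10 did not pass and none was lowered, against 4.14% raised among all genes, and the list's median log2 fold change was 0.22, against 0.00 over all genes tested. It was 0.21 in MEIS1-KO and 0.25 in MEIS2-KO. With the GC offset 39 were raised, and without both end libraries 36. The changes were small: the largest, of GDF15, was 0.73, and 8 of the 41 genes lay wholly above the controls in all 12 knockout libraries, against 0.698% of all genes. By role, 9 of 12 genes of cell cycle arrest, 8 of 12 of apoptosis, 3 of 4 of DNA repair and nucleotide supply and 10 of 12 of metabolism and other functions were raised, as was MDM2, which degrades p53.

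CDKN1A, the cell cycle inhibitor p21, ranged from 368 to 494 CPM in MEIS1-KO (median 432), from 423 to 515 CPM in MEIS2-KO (median 494) and from 290 to 380 CPM in ctrl-KO (median 336). It was the knockouts that were high, 11 of 12 above every control (log2 fold change 0.46, SE 0.06, edgeR adjusted p = 3.07e-05). DRAM1, a lysosomal protein of autophagy, ranged from 40.8 to 48.6 CPM in MEIS1-KO (median 44.4), from 45.1 to 48.9 CPM in MEIS2-KO (median 47.9) and from 32.4 to 37.3 CPM in ctrl-KO (median 34.1). It had the smallest p of the list, with no overlap and a log2 fold change of 0.43 (SE 0.04, edgeR adjusted p = 4.06e-06). TP53I3, an oxidoreductase, ranged from 105 to 126 CPM in MEIS1-KO (median 111), from 124 to 135 CPM in MEIS2-KO (median 128) and from 86.3 to 97.6 CPM in ctrl-KO (median 92.4), also without overlap (log2 fold change 0.40, SE 0.04, edgeR adjusted p = 5.79e-06).

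XPC, a sensor of damaged bases, showed how small a uniform change was called: it ranged from 194 to 203 CPM in MEIS1-KO (median 199), from 201 to 218 CPM in MEIS2-KO (median 212) and from 172 to 178 CPM in ctrl-KO (median 175). Its groups were narrow and separate at a log2 fold change of 0.22 (SE 0.03, edgeR adjusted p = 2.70e-05). PLK2, a kinase of the stress response, rose by 0.36 and GADD45A, an inhibitor of growth, by 0.39, both without overlap. Further members were chosen here after their values were seen: MDM2 (0.29), the death receptor FAS (0.36), the apoptosis effector BAX (0.29), FDXR, a mitochondrial electron carrier enzyme (0.54), and GDF15, a secreted stress cytokine (0.73), were raised. The pro-apoptotic BBC3 (0.39, edgeR adjusted p = 0.121) and CCNG1 (0.15, edgeR adjusted p = 0.0844) did not pass, and PERP (-0.14) was the single member with a negative value. The activation libraries, where the Cas9 does not cut, gave 3 raised and 0 lowered of these 41 genes, with a median of 0.06, where 2.35% and 0.878% of all genes were raised and lowered with activation. That difference between the systems was not tested.

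Some genes of DNA replication were lowered. Of 36 genes of the G1 to S transition and replication, 13 were lowered, 23 did not pass and none was raised, against 3.72% lowered among all genes (list median -0.12). The count was 8 without ctrl-KO replicate 5, 23 with the GC offset and 16 without both end libraries. MCM6, a subunit of the replicative helicase, ranged from 248 to 290 CPM in MEIS1-KO (median 277), from 231 to 265 CPM in MEIS2-KO (median 254) and from 301 to 345 CPM in ctrl-KO (median 311). It stood apart from the control in both knockouts (log2 fold change -0.26, SE 0.04, edgeR adjusted p = 0.000171), as did its partners MCM4 (-0.14) and MCM3 (-0.14). POLA1, the polymerase that starts each DNA strand, changed by -0.26 (SE 0.05, edgeR adjusted p = 0.00214), and CCNE1, the cyclin that opens S phase, by -0.19 (SE 0.04, edgeR adjusted p = 0.00477). PCNA, the sliding clamp, which p53 also induces, did not pass (0.06, edgeR adjusted p = 0.364) and was chosen after its value was seen.

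Of 32 genes of G2 and mitosis, 2 were raised and 3 lowered (median -0.03), where 4.14% and 3.72% of all genes were, and with the GC offset 7 were raised and 6 lowered. The raised kinase CDK1 (0.14, SE 0.04) lost its call when any 1 of 10 libraries was left out, for example ctrl-KO replicate 6 (edgeR adjusted p = 0.106), and the lowered spindle motor KIF11 (-0.17, SE 0.05) with any 1 of 3 control libraries left out, for example ctrl-KO replicate 2 (edgeR adjusted p = 0.0808). MKI67, the proliferation marker, changed by -0.25 (SE 0.05, edgeR adjusted p = 0.00127) and the kinetochore motor CENPE by -0.22, whereas UBE2C, a ubiquitin carrier of mitotic exit, changed by 0.24. Of 6 inhibitors of cyclin-dependent kinases, 1 was raised and 2 were lowered, also with the GC offset. CDKN1A was the raised one, and CDKN2C (p18) was lowered with a log2 fold change of -0.43 (SE 0.09, edgeR adjusted p = 0.00608). CDKN1B (p27) was the other lowered one, at -0.19 (SE 0.05, edgeR adjusted p = 0.0350), a call lost when any 1 of 7 libraries was left out, for example ctrl-KO replicate 5 (edgeR adjusted p = 0.103). Of 26 genes that repair double-strand breaks none was raised and 4 were lowered (median -0.10), against 3.72% lowered among all genes, and 6 were lowered with the GC offset and 1 without both end libraries. RBBP8, which trims broken ends, was lowered, with a log2 fold change of -0.19 (SE 0.05, edgeR adjusted p = 0.0100). The calls of the other 3, BRCA1, BARD1 and XRCC5, were lost when certain single libraries were left out, for example without MEIS1-KO replicate 3, where the edgeR adjusted p was 0.0590 for BRCA1, 0.0675 for BARD1 and 0.0595 for XRCC5. It was 0.108 for BRCA1 without ctrl-KO replicate 2.

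Markers of neural stem cells fell in part. Of 14 genes on the marker list, 7 were lowered and none was raised (median log2 fold change -0.20), against 3.72% lowered among all genes, and 8 were lowered with the GC offset and 7 without both end libraries. The summed level of the list was nonetheless alike, from 3063 to 3695 CPM in MEIS1-KO, from 2940 to 3485 CPM in MEIS2-KO and from 2930 to 3310 CPM in ctrl-KO. The filament NES, at a mean of 1442 CPM in ctrl-KO, did not pass (0.20, edgeR adjusted p = 0.0750), and NR2E1 stayed under 10 counts in every library.

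PAX6, a master regulator of eye and forebrain, ranged from 21.7 to 30.9 CPM in MEIS1-KO (median 27.2), from 22 to 31.2 CPM in MEIS2-KO (median 24.1) and from 33.0 to 36.7 CPM in ctrl-KO (median 35.7). Both knockouts lay wholly below the control (log2 fold change -0.46, SE 0.07, edgeR adjusted p = 0.000203). SOX1, an early neural factor, ranged from 81.4 to 94.5 CPM in MEIS1-KO (median 87.5), from 72.2 to 86.4 CPM in MEIS2-KO (median 81.6) and from 95.8 to 102 CPM in ctrl-KO (median 98.7), with a small gap to the control (log2 fold change -0.24, SE 0.04, edgeR adjusted p = 0.000745). SOX2, which keeps neural stem cells undifferentiated, changed by -0.23 (SE 0.05, edgeR adjusted p = 0.00637), with 10 of 12 knockout libraries below every control, and its call was lost when all 36 libraries were fitted together (edgeR adjusted p = 0.0928). SLC1A3, the glutamate transporter of radial glia, changed by -0.34 (SE 0.07, edgeR adjusted p = 0.00561). HES5, a target of Notch, had the widest change of the list at -1.37 (SE 0.30, edgeR adjusted p = 0.00524), but it rested on 4 to 11 reads per library in MEIS1-KO, 2 to 11 in MEIS2-KO and 11 to 17 in ctrl-KO.

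Among 38 tested patterning, SOX and proneural factors, 13 were lowered and none was raised (median -0.08), against 3.72% lowered among all genes, and 15 were lowered with the GC offset and 12 without both end libraries. SOX genes made up 8 of these 13, out of 12 SOX genes tested, with a median of -0.22. SOX11, a factor of immature neurons, ranged from 204 to 226 CPM in MEIS1-KO (median 214), from 192 to 226 CPM in MEIS2-KO (median 204) and from 237 to 258 CPM in ctrl-KO (median 245). It was uniformly lower (log2 fold change -0.23, SE 0.03, edgeR adjusted p = 0.000171). NR2F1, a nuclear receptor that shapes cortical areas, ranged from 139 to 175 CPM in MEIS1-KO (median 144), from 134 to 151 CPM in MEIS2-KO (median 141) and from 185 to 206 CPM in ctrl-KO (median 197). Its groups were apart, at a log2 fold change of -0.42 (SE 0.05, edgeR adjusted p = 5.79e-06). SOX21 changed by -0.35 (SE 0.07, edgeR adjusted p = 0.00215), a call that was lost in the fit of all 36 libraries (edgeR adjusted p = 0.12). Chosen after its value was seen, SOX9 went the other way without passing (0.27, edgeR adjusted p = 0.113).

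**Figure D3:**
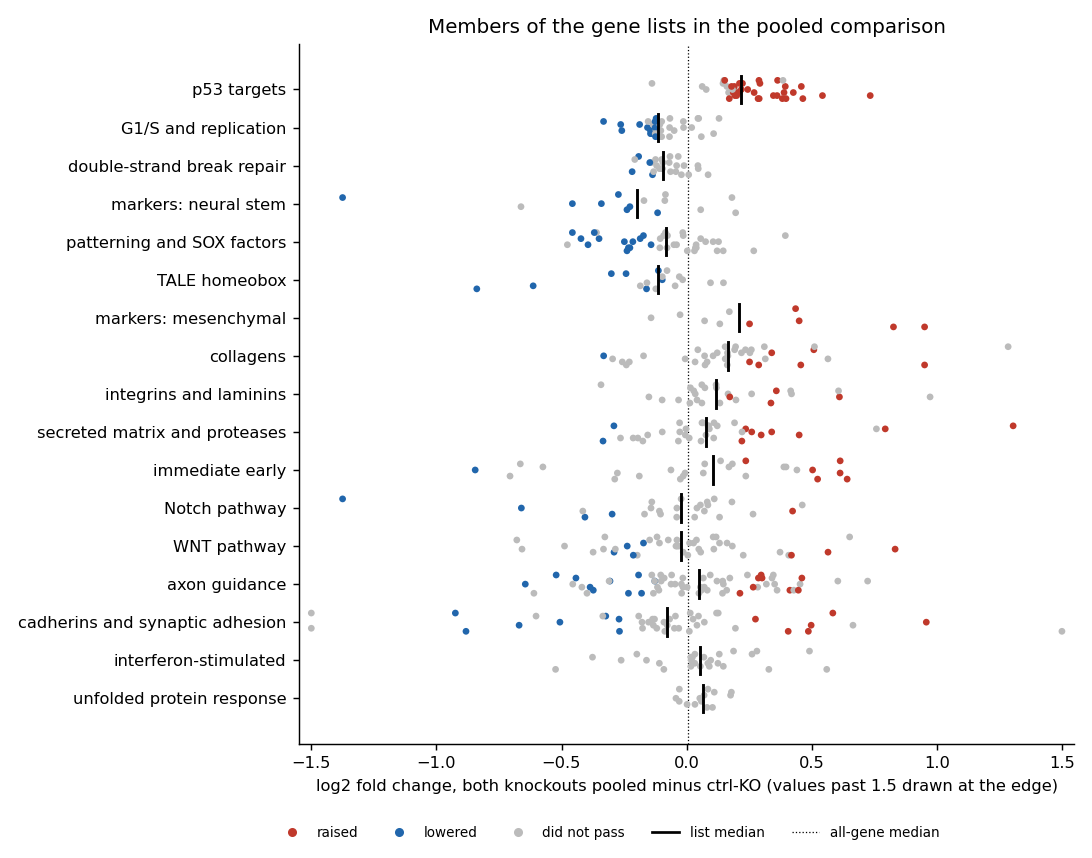
Log2 fold change of both knockouts pooled against ctrl-KO for each tested member of 17 gene lists, one point per gene, coloured red where raised, blue where lowered and grey where the test was not passed, with the list median as a bar and the all-gene median of 0.00 as a dotted line. The p53 targets lie to the right (31 of 41 raised), while replication genes, neural stem markers and SOX factors lean to the left.

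Some markers of contractile, mesenchymal cells were raised. Of 10 mesenchymal markers 5 were raised, 5 did not pass and none was lowered (median 0.21, against 4.14% raised among all genes), though 3 were raised without ctrl-KO replicate 3 or without ctrl-KO replicate 6, 4 without both end libraries and 5 with the GC offset. TAGLN, an actin-binding protein of smooth muscle, ranged from 225 to 429 CPM in MEIS1-KO (median 267), from 271 to 419 CPM in MEIS2-KO (median 327) and from 118 to 213 CPM in ctrl-KO (median 188). Wide as they were, the groups did not overlap (log2 fold change 0.83, SE 0.14, edgeR adjusted p = 0.000532). ACTA2, smooth-muscle actin, ranged from 116 to 132 CPM in MEIS1-KO (median 127), from 128 to 146 CPM in MEIS2-KO (median 143) and from 92.8 to 101 CPM in ctrl-KO (median 98.2), a narrow and complete separation (log2 fold change 0.44, SE 0.04, edgeR adjusted p = 4.05e-07). COL1A1, a chain of type I collagen, changed by 0.95 (SE 0.17, edgeR adjusted p = 0.00131) with 10 of 12 libraries above every control. The fibroblast markers LUM (-0.03) and COL3A1 (0.07) did not pass, and DCN stayed under 10 counts in every library.

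The counts of markers called are to be read against 4.14% raised and 3.72% lowered among all genes. The summed mesenchymal level ranged from 1195 to 1758 CPM in MEIS1-KO, from 1240 to 1647 CPM in MEIS2-KO and from 956 to 1290 CPM in ctrl-KO, so the groups overlapped. Endothelial markers were summed to 199 to 270 CPM in MEIS1-KO, 248.6 to 297 CPM in MEIS2-KO and 200.2 to 217 CPM in ctrl-KO, and 3 of 7 were raised, namely the VEGF receptor KDR (0.36, SE 0.06, edgeR adjusted p = 0.000322), the junction protein CDH5 (0.32) and the receptor TIE1 (0.39), while PECAM1 (0.17) and VWF (0.33) did not pass. Leukocyte markers were summed to at most 5.12 CPM in any library, 2 of 5 tested were raised, CD68 and TYROBP, and PTPRC, CSF1R, CX3CR1 and ITGAM stayed under 10 counts throughout. TYROBP, an adaptor of myeloid receptors (1.29, SE 0.37), lost its call when any 1 of 8 libraries was left out, for example ctrl-KO replicate 2 (edgeR adjusted p = 0.0855), and 1 leukocyte marker was raised with DESeq2 and 1 without both end libraries. Neural crest markers had 2 of 5 raised, among them SNAI2, a repressor of epithelial genes (0.34, SE 0.06, edgeR adjusted p = 0.000619), with FOXD3 at 0. None of 7 astrocyte, 4 pluripotency or 3 epithelial markers passed with edgeR or DESeq2, and 1, 0 and 1 of them had an unadjusted p under 0.05, while with the GC offset 1 astrocyte marker was raised. Of 4 oligodendrocyte-lineage markers 1, the proteoglycan CSPG4, rose (0.62, SE 0.14, edgeR adjusted p = 0.00561). Of 15 neuronal markers 3 were raised, including the neurofilaments NEFM (0.33) and NEFL (0.25), and 2 were lowered. SYP, a protein of synaptic vesicles, was lowered in all 12 libraries relative to every control (-0.53, SE 0.12, edgeR adjusted p = 0.00882), at 17 to 35 reads per library in MEIS1-KO, 24 to 34 in MEIS2-KO and 35 to 50 in ctrl-KO. DCX, a microtubule protein of young neurons, was lowered (-0.85, SE 0.25, edgeR adjusted p = 0.0367) at 4 to 31 reads per library, a call lost when any 1 of 9 libraries was left out, for example ctrl-KO replicate 5 (edgeR adjusted p = 0.171). The part of other cell types in the results was not tested.

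Secreted matrix proteins and proteases had 8 of 35 genes raised and 2 lowered (median 0.08), collagens 6 of 36 raised and 1 lowered (median 0.16), and integrins and laminins 4 of 26 raised and none lowered (median 0.12), where 4.14% of all genes were raised and 3.72% lowered. With the GC offset 9, 8 and 8 were raised and 3, 1 and 1 lowered. Most members of these lists did not pass. Among the raised collagens COL13A1 (0.46, SE 0.12) lost its call without ctrl-KO replicate 1 (edgeR adjusted p = 0.0558) or ctrl-KO replicate 2 (edgeR adjusted p = 0.0650). COL1A2, also raised, lost its call when any 1 of 7 libraries was left out, and 4 collagens were raised without both end libraries. PLAU, the protease urokinase, ranged from 14 to 24.9 CPM in MEIS1-KO (median 21.8), from 20.3 to 25.1 CPM in MEIS2-KO (median 23.2) and from 10.1 to 16.2 CPM in ctrl-KO (median 12.2). All but 1 knockout library were above the control (log2 fold change 0.79, SE 0.11, edgeR adjusted p = 0.000112). The gelatinase MMP2 rose by 0.34 and the aggrecan-cutting ADAMTS9 by 0.30, and the proteoglycan SPOCK1 fell by 0.29 on the log2 scale. ITGA5, a subunit of the fibronectin receptor (0.36), and ITGA3, a laminin-binding subunit (0.61), were raised, as was COL11A1, a fibrillar collagen (0.29), against COL9A1, a collagen of cartilage, which was lowered (-0.33).

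Of 26 tested immediate early genes, 6 were raised and 1 was lowered (median 0.10, against 4.14% raised and 3.72% lowered among all genes), and 7 were raised and 3 lowered with the GC offset. The raised ones were 4 of the 9 AP-1 subunits and 2 of the 17 other genes, a difference that was not tested. FOSL1 ranged from 13.1 to 20.3 CPM in MEIS1-KO (median 15.6), from 15.9 to 19.6 CPM in MEIS2-KO (median 17.5) and from 10.5 to 12.2 CPM in ctrl-KO (median 10.9). It was higher in all knockout libraries (log2 fold change 0.61, SE 0.08, edgeR adjusted p = 3.07e-05), like its relative FOSL2 (0.50, SE 0.08, edgeR adjusted p = 0.000244). ATF3, which pairs with AP-1 subunits under stress, ranged from 46.2 to 62.1 CPM in MEIS1-KO (median 52.6), from 47.8 to 67.6 CPM in MEIS2-KO (median 56.0) and from 30.4 to 41.1 CPM in ctrl-KO (median 34.6), without overlap (log2 fold change 0.64, SE 0.07, edgeR adjusted p = 1.24e-05). MYC, a driver of growth, rose by 0.52 and IER3, a survival factor, by 0.61. The classical growth-factor responders FOS (-0.29) and EGR1 (-0.28), chosen after their values were seen, did not pass, and EGR2 was the gene lowered (-0.85).

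Each of the signalling lists below had raised and lowered members. The shares over all genes to read the following counts against are 4.14% raised and 3.72% lowered. In the FGF and ERK list 6 of 24 genes were raised and 3 lowered (median 0.00), and 5 and 5 with the GC offset. Its feedback inhibitors went both ways, SPRY4 rising by 0.40 (SE 0.05, edgeR adjusted p = 3.76e-05) and SPRY2 falling with a log2 fold change of -0.20 (SE 0.03, edgeR adjusted p = 0.000399), and the receptor KIT was lowered (-0.42). In the Notch list 1 of 25 was raised and 4 lowered (median -0.02), and 1 and 5 with the GC offset: of the genes that glycosylate the receptor, LFNG was raised (0.42) and MFNG lowered (-0.66), while the coactivator MAML3 was lowered (-0.30) and none of the 4 receptors passed. MFNG had few reads, with 0.695 to 1.33 CPM in MEIS1-KO, 0.454 to 0.822 CPM in MEIS2-KO and 0.894 to 1.70 CPM in ctrl-KO. MEIS1-KO thus overlapped the control, and MEIS2-KO lay below it.

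In the Wnt list 3 of 40 were raised (7.5%) and 4 lowered (10%), against 4.14% and 3.72% of all genes (median -0.02), and 6 were raised and 5 lowered with the GC offset. The lowered ones were the receptor FZD1 (-0.29, SE 0.05, edgeR adjusted p = 0.00129), 2 further frizzled receptors and the antagonist SFRP1 (-0.17), and beside DKK2 the antagonist FRZB (0.42) and the ligase RNF43 (0.57), which removes frizzled receptors, were raised. In the BMP and TGF-beta list 3 of 32 were raised and 4 lowered (median -0.01), and 5 and 6 with the GC offset. BMP7, a ligand, ranged from 124 to 155 CPM in MEIS1-KO (median 131), from 121 to 140 CPM in MEIS2-KO (median 130) and from 96.3 to 120 CPM in ctrl-KO (median 111). The ligand was thus higher (0.26, SE 0.05, edgeR adjusted p = 0.00140), whereas its receptor BMPR1B (-0.36, SE 0.06, edgeR adjusted p = 0.000442) and the target ID2 (-0.69, SE 0.13, edgeR adjusted p = 0.00183) were lower. Of NF-kB response genes 4 of 19 were raised, among them the cytokines IL1A (0.67, SE 0.12, edgeR adjusted p = 0.000974) and LIF (0.40), and 1, the mitochondrial superoxide dismutase SOD2, was lowered (-0.19, SE 0.06). SOD2 lost its call when any 1 of 9 libraries was left out, for example ctrl-KO replicate 1 (edgeR adjusted p = 0.13), the raised cytokine CSF1 (0.34) with any 1 of 3 control libraries left out, for example ctrl-KO replicate 2 (edgeR adjusted p = 0.0675), and no gene of the list was lowered without both end libraries.

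Axon guidance genes were changed in both directions, 8 of 63 being raised and 10 lowered (median 0.05), against 4.14% and 3.72% of all genes. With the GC offset 11 were raised and 17 lowered, and the median changed sign to -0.04. EPHA3, an ephrin receptor, ranged from 45.1 to 65.1 CPM in MEIS1-KO (median 57.2), from 43.2 to 51.3 CPM in MEIS2-KO (median 46.0) and from 66.4 to 76.1 CPM in ctrl-KO (median 74.1). It lay below the control in all libraries (log2 fold change -0.52, SE 0.06, edgeR adjusted p = 1.97e-05). Among the semaphorins SEMA3D (-0.64) and SEMA5A (-0.44) were lowered, and the repellent SLIT2 (0.27) and the semaphorin receptor NRP2 (0.21) were raised. Of 43 cadherins and synaptic adhesion genes 6 were raised and 7 lowered (median -0.08), and 6 and 11 with the GC offset. PCDH8, LRRTM3 and PCDH18 (-0.51) were among the lowered, and CDH8 (0.28) and the presynaptic neurexin NRXN3 (0.41) among the raised. Ion channels and transmitter receptors had 4 of 75 raised (5.33%) and 5 lowered (6.67%), against 4.14% and 3.72% of all genes (median 0.05). Without both end libraries 2 were raised and 4 lowered. The potassium channel KCNC1 (-0.34) and the sodium channel SCN8A (-0.27) were among the lowered.

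Stress responses and housekeeping lists are given beside the 4.14% raised and 3.72% lowered among all genes. None of 27 tested interferon-stimulated genes and none of 14 genes of the unfolded protein response passed with edgeR, and 1 of 15 genes of the integrated stress response and 1 of 13 heat shock genes did, the latter being BAG3, a cochaperone (0.24, SE 0.05, edgeR adjusted p = 0.00359). At an unadjusted p under 0.05 there were 5 and 2, DESeq2 called 0 in both lists, and with the GC offset 1 interferon-stimulated gene and 3 genes of the unfolded protein response were raised. The raised gene of the integrated stress response was the amino acid transporter SLC7A5 (0.39, SE 0.12), which lost its call when any 1 of 10 libraries was left out, for example ctrl-KO replicate 2 (edgeR adjusted p = 0.12). In that list 0 were raised and 1 lowered without both end libraries, 1 and 2 with the GC offset and 1 and 1 with DESeq2, and of the heat shock genes 2 were raised and 1 lowered under each of these 3 alternatives. Of 77 ribosomal protein genes 5 were raised and none lowered (median 0.07), and 16 were raised with the GC offset and 2 without both end libraries. The 5 were RPL11, RPL12, RPL27, RPS12 and RPS18, with log2 fold changes from 0.10 (RPS18) to 0.12 (RPS12). RPS12 kept its call when any single library was left out, whereas RPL11 lost it with any 1 of 11 libraries left out, RPL12 of 4, RPL27 of 9 and RPS18 of 12. Without ctrl-KO replicate 1 the edgeR adjusted p was 0.102 for RPL11 and 0.0979 for RPS18, without ctrl-KO replicate 2 it was 0.0990 for RPL12, and without ctrl-KO replicate 6 it was 0.0928 for RPL27. Sterol and fatty acid synthesis had 3 of 31 lowered (median -0.04), and 5 with the GC offset, with the desaturase FADS1 at -0.17 (SE 0.03, edgeR adjusted p = 0.00191). Of the other lowered genes of this list, CYP51A1 (-0.16) lost its call when any 1 of 10 libraries was left out, for example ctrl-KO replicate 2 (edgeR adjusted p = 0.139), and SCD (-0.16) without ctrl-KO replicate 1 (edgeR adjusted p = 0.0622). Of 29 genes of hypoxia and glycolysis 3 were raised and 2 lowered (median 0.06), and 4 and 3 with the GC offset: the hexokinase HK2 was lowered without overlap (-0.44, SE 0.04, edgeR adjusted p = 1.22e-06), and P4HA2, which hydroxylates collagen, was raised (0.46, SE 0.08, edgeR adjusted p = 0.000420). The other lowered gene, the lactate dehydrogenase LDHA (-0.15), lost its call when any 1 of 4 control libraries was left out, for example ctrl-KO replicate 2 (edgeR adjusted p = 0.0857). Neither of 2 metallothioneins passed with edgeR or DESeq2 or had an unadjusted p under 0.05.

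Whether the knockouts differed was tested directly between MEIS1-KO and MEIS2-KO, a contrast that no control library enters. The targets were the 2 genes that differed at an adjusted p under 0.05 (0.0109% of those tested), MEIS1 with a log2 difference of -1.36 and MEIS2 with 0.93 (both edgeR adjusted p = 3.22e-09). At an unadjusted p under 0.05 there were 939 genes. DESeq2 called 6, and edgeR with the GC offset called 3. With the replicate number as a block edgeR called 4, and without both end libraries it called 3. In the edgeR fit that called the 2 targets alone, none of the other 1440 genes called in the pooled comparison passed. This does not show that the knockouts were alike, since the median SE of the difference over these genes was 0.07.

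The size of the response leaned to MEIS2-KO. Of the 760 raised genes 653 (85.9%) were higher in MEIS2-KO than in MEIS1-KO, and of the 682 lowered genes 632 (92.7%) were lower in MEIS2-KO, where 48.7% and 51.3% of all genes tested were higher and lower. The median difference, MEIS1-KO minus MEIS2-KO, was -0.09 for raised and 0.08 for lowered genes, and with the GC offset the shares were 84.1% and 85.3% and the medians -0.08 and 0.05. Genes share libraries and are not independent, so no test was made of these shares. GREM1 was 1.21 above the control in MEIS1-KO and 1.6 in MEIS2-KO on the log2 scale, IGFBP5 -0.42 and -0.75, and CDKN1A 0.39 and 0.54. PCDH8, PRMT8 (-0.73 and -0.73), RGS5 (0.61 and 0.62) and MYC (0.52 and 0.52) showed nearly the same value in both.

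**Figure D4:**
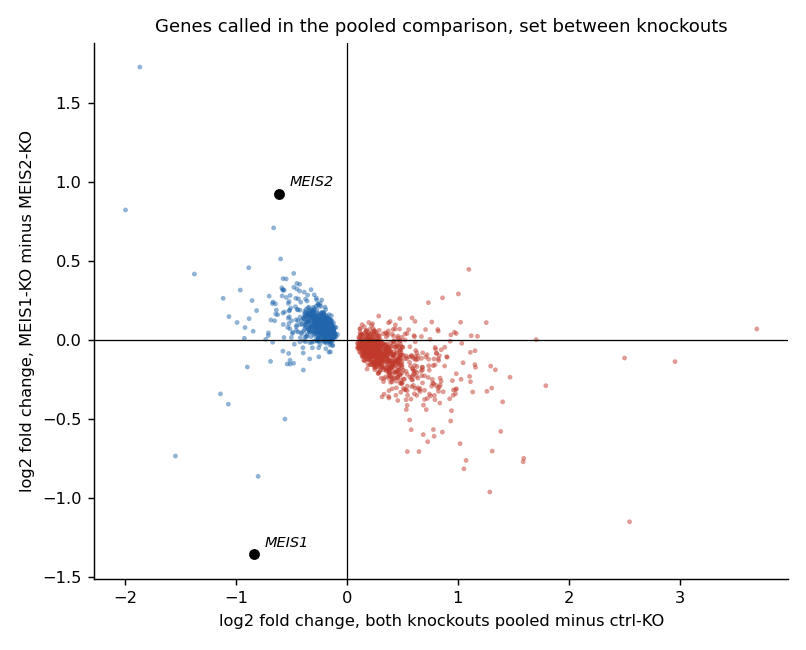
Log2 fold change of both knockouts pooled against ctrl-KO (horizontal axis) and log2 difference between MEIS1-KO and MEIS2-KO (vertical axis), for the 760 raised (red) and 682 lowered (blue) genes, one point per gene. Raised genes lie mostly below 0 and lowered genes mostly above it, and the targets MEIS1 (-1.36) and MEIS2 (0.93), drawn in black, are the 2 genes called in the direct contrast.

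The same genes were then read in the activation libraries, where a Cas9 unable to cut carries activators to the MEIS1 or MEIS2 promoter and the targets go up instead of down. Pooled over MEIS1-OE and MEIS2-OE, 445 of 18915 tested genes were raised (2.35%) and 166 lowered (0.878%) against ctrl-OE. MEIS1 changed by 2.02 (SE 0.05) and MEIS2 by 2.58 (SE 0.05) on the log2 scale. Of the genes raised by knockout, 80 of 760 were raised (10.5%) and 9 lowered (1.18%), with a median of 0.07. Of the genes lowered by knockout, 26 of 681 were raised (3.82%) and 25 lowered (3.67%), with a median of -0.06. MEIS1 and MEIS2, at which the activation is aimed, are among the 26. Of the 154 genes raised by more than 0.58 in the knockouts, 15 were raised and none was lowered at an adjusted p under 0.05 with activation.

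A small number of genes followed the targets in opposite directions. BAALC, a membrane protein of neuroectoderm and blood progenitors, ranged from 85.8 to 114 CPM in MEIS1-KO (median 102), from 89.0 to 104 CPM in MEIS2-KO (median 95.5) and from 112 to 134 CPM in ctrl-KO (median 126), and 11 of 12 knockout libraries were below the control (log2 fold change -0.34, SE 0.05, edgeR adjusted p = 0.000203). With activation it ranged from 98.6 to 108 CPM in MEIS1-OE, from 93.6 to 110 CPM in MEIS2-OE and from 52.4 to 59.9 CPM in ctrl-OE, a complete separation upwards (log2 fold change 0.89, SE 0.04, edgeR adjusted p = 1.14e-12). ST8SIA4, which adds polysialic acid to neural adhesion molecules, was lowered by knockout without overlap (-0.35, SE 0.05, edgeR adjusted p = 0.000244) and raised by activation (0.63, SE 0.05, edgeR adjusted p = 9.44e-09). F13A1, a subunit of the crosslinking enzyme factor XIII, was raised by knockout (0.17, SE 0.05, edgeR adjusted p = 0.0213), a call lost without ctrl-KO replicate 1 (edgeR adjusted p = 0.0654) or replicate 6 (edgeR adjusted p = 0.0533), and lowered by activation (-0.90, SE 0.05, edgeR adjusted p = 1.06e-10).

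The 5 genes with the smallest p with activation among those that moved the same way in both systems were raised in MEIS1-OE, and none of them passed in MEIS2-OE. MMP19, a matrix protease, ranged from 1.45 to 2.36 CPM in MEIS1-KO (median 1.81), from 1.88 to 2.61 CPM in MEIS2-KO (median 2.47) and from 0.947 to 1.26 CPM in ctrl-KO (median 1.06), so both knockouts were above the control (log2 fold change 0.98, SE 0.13, edgeR adjusted p = 5.68e-05). It ranged from 90.9 to 123 CPM in MEIS1-OE, from 7.21 to 10.2 CPM in MEIS2-OE and from 6.24 to 9.34 CPM in ctrl-OE, with log2 fold changes of 3.85 and 0.12. The GTPase RAB13 (0.22 with knockout, 1.23 in MEIS1-OE and -0.05 in MEIS2-OE) and the adhesion receptor ICAM1 (0.33, 1.24 and 0.02) had the same pattern. JPH4, a protein of membrane junctions (0.33, 1.06 and 0.22), and FXYD5, a regulator of the sodium pump (0.80, 2.06 and 0.24), did as well, but the knockout call of JPH4 was lost with the GC offset (edgeR adjusted p = 0.102) and that of FXYD5 when any of 14 single libraries was left out, for example without MEIS1-KO replicate 1 (edgeR adjusted p = 0.0594).

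**Figure D5:**
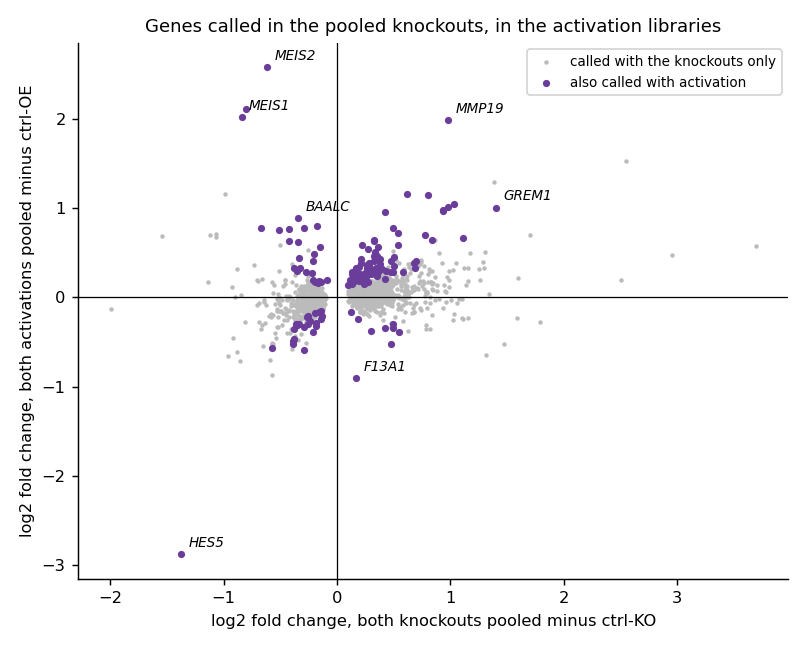
Log2 fold change of both knockouts pooled against ctrl-KO (horizontal axis) and of both activations pooled against ctrl-OE (vertical axis), for genes called in the pooled knockouts, one point per gene, in purple where the activation comparison also passed. Purple points on the right lie mostly above 0 (80 raised against 9 lowered), and those on the left lie on both sides (26 and 25), with MEIS1, MEIS2 and BAALC at the upper left.

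Promoters of the genes called in the pooled comparison were searched for short motifs. They were taken from the RefSeq table of 300-base promoters on GRCh38.p14 (250 bases before to 50 after the gene's start). That table held 12610 of the tested genes by symbol. The motif of AP-1, TGANTCA on either strand, was present in 12 of 99 promoters of genes raised by more than 0.58 (12.1%), in 49 of 584 promoters of all raised genes (8.39%), in 26 of 520 of lowered genes (5.0%), in 4.88% of those of all tested genes and in 7.76% of all promoters of the table. The MEIS core motif TGACAG on either strand was present in 13.1%, 13.9%, 14%, 13.5% and 15.9% of the same sets. The 10-base p53 half-site was present in 4 of 24 promoters of raised p53 targets (16.7%), in 8.08% of those of genes raised by more than 0.58, in 10.3% of those of raised genes, in 7.31% of those of lowered genes, in 5.43% of those of all tested genes and in 6.54% of the table. These shares are descriptions without a test, and a match of letters is not a binding site.

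The windows around the first matches are shown for 3 raised genes with the AP-1 motif, 2 raised p53 targets with the half-site and 1 lowered gene with the MEIS motif, in capitals.
ANKRD1: catttcttccTGATTCAcatattcagc
EMILIN2: accaaaggaaTGAGTCAttggaaatgc
IL1A: cgaagaagacTGACTCAggcttaagct
PLK2: gcgggacaAGACTTGCTTcccggcca
FDXR: gcaggagcGGGCTTGCCCtgcggagc
LRRTM3: tgcactgtacTGACAGaaggggaaaa
They lie at chr10:90921266-90921292 (minus strand), chr18:2846779-2846805 (plus), chr2:112784489-112784515 (minus), chr5:58460201-58460226 (minus), chr17:74872988-74873013 (minus) and chr10:67012143-67012168 (plus) of GRCh38.p14, in this order. ANKRD1, a cofactor induced by stretch, had a log2 fold change of 0.94 (SE 0.13, edgeR adjusted p = 5.74e-05) in the pooled comparison, and EMILIN2, a glycoprotein of the matrix, of 0.78 (SE 0.12, edgeR adjusted p = 0.000297). Both were named for their promoters after their values were seen.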

How the data were processed

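RNA-seq libraries of hNSC, harvested 48 h after transduction, were prepared by the study from poly-A RNA with a stranded kit and read for 100 bases from both ends. As deposited by the authors, the values are raw counts of reads per gene symbol, aligned to hg19 and counted with HTSeq 0.6.0. The design text names STAR 2.4.2a, whereas the submitters' processing notes name STAR 2.7.0a and Trimmomatic 0.39, and the gene annotation and strand setting are not given in the sources used here, so reads of overlapping and antisense genes may be mixed. Libraries were grouped by their labels. Genes with at least 10 counts over the 18 knockout libraries were fitted with 3 group means in edgeR 4.0.16 (TMM, quasi-likelihood F test, two-sided, prior count 0.125, limma 3.58.1, R 4.3.3), and p-values were adjusted by Benjamini-Hochberg over all genes tested. The pooled contrast is the mean of both knockouts minus ctrl-KO, so that each knockout has the same weight. Standard errors are the log2 fold change over the root of F, and CPM use TMM library sizes. The 18 activation libraries were fitted separately in the same way.

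On simulated counts for the pooled comparison (18161 genes), 50 of 50 genes changed to 2-fold, 50 of 50 to 1.5-fold, 50 of 50 to 0.5-fold and 37 of 50 to 1.25-fold were called, with 9 false calls. The changed genes were drawn from those with a mean of at least 50 counts and changed alike in both knockouts. Libraries were drawn independently, without the GC-linked deviations that genes share in the real libraries. These figures therefore do not cover genes with fewer reads or such shared deviations. The depth per library stands with the results, and it sets the precision of genes with few reads.

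The members and gene lists were chosen with earlier results of these data known. Named are MEIS1 and MEIS2, the 15 raised and 15 lowered genes with the smallest p past 0.58 at a mean of at least 1 CPM, up to 5 called genes with the smallest p per list, the genes called past 0.58 between the knockouts, and, of the pooled calls, the 5 genes with the smallest p with activation that were called there in the opposite direction and the 5 in the same direction. Other genes, among them all genes given as not passing and PBX3, TGIF2, EGR2, MDM2, FAS, BAX, FDXR and GDF15, were chosen after their values were seen. Gene positions and guide matches were read from GRCh37, and promoters from RefSeq. Alternatives were other size factors, filters and prior counts, DESeq2 1.42.0, a replicate block, the knockouts as a single group, all 36 libraries in one fit and each library left out, and, added after the data were seen, the GC offset and the fit without the end libraries. Python 3.11.15 with numpy 2.4.6, pandas 2.3.3 and matplotlib 3.10.9 was used. Some of the genes that the naming rule selects are not reported here.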

Additional observations from a re-analysis of the deposited data

Results flagged for a closer look

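Both targets differed between the knockouts in the direct test of edgeR, MEIS1 with a log2 difference of -1.359 and MEIS2 with 0.928 (MEIS1-KO minus MEIS2-KO), in opposite directions.

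Of 114 pairs of a leading gene and a knockout-system group, over 38 genes, 4 had a library far from the other 5, where chance gives about 1 in 20. ANXA1 was at 94.57 CPM in MEIS1-KO replicate 2 and between 131.9 and 145.9 CPM in the other MEIS1-KO libraries. MAMDC2 was at 4.477 CPM in ctrl-KO replicate 3 against 5.604 to 6.157 CPM in the other controls. MMP19 was at 1.88 CPM in MEIS2-KO replicate 3 against 2.333 to 2.612 CPM. RAPGEF3 was at 7.048 CPM in ctrl-KO replicate 2 against 8.186 to 8.899 CPM. The pooled calls of ANXA1, MAMDC2, MMP19 and RAPGEF3 held when any single library was left out.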

How the results depend on the processing

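No fold change of a named gene in the pooled comparison changed sign under the alternatives run. Of 4225 values of the 151 named genes under alternatives, 4019 stayed on their side of the threshold and 206, in 31 genes, no longer passed, 170 of them when a single library was left out. With the GC offset per library, 1261 genes were raised, 1164 lowered, 951 called in MEIS1-KO and 23 replication genes lowered. DESeq2 called 6 genes between the knockouts, 561 in MEIS1-KO and 277 lowered with activation, where the fit of all 36 libraries lowered 257. The libraries of different conditions share replicate numbers, but only 15 of 18 same-numbered pairs had a correlation of deviations above 0.1 (mean 0.22, from -0.14 to 0.51, against -0.05 for 90 other pairs), and 9 of 18 libraries correlated best with their own number, so the numbers were not taken as pairs. A replicate block gave 1157 lowered genes, 4 genes between the knockouts (beside the targets C15orf41, adjusted p = 0.0389, and NID2, adjusted p = 0.000242), 690 in MEIS1-KO, 2769 in MEIS2-KO and 301 lowered with activation, and 759 of the 760 raised and 681 of the 682 lowered genes were also called with it. With single libraries left out, 571 to 831 genes were raised, 425 to 753 lowered, 165 to 492 called in MEIS1-KO, 8 to 16 replication genes lowered and 3 to 5 mesenchymal markers raised, and 29 to 36 p53 targets raised and 5 to 7 neural stem markers lowered. Depth limits genes such as HES5, with 2 to 17 reads per library.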

Other observations

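The closest tested neighbour of MEIS2 was singled out after its values were seen. C15orf41 (CDIN1 in newer annotation, chr15:36871827-37102449 on GRCh37, 78956 bases from MEIS2) ranged from 7.77 to 10.1 CPM in MEIS1-KO (median 9.15), from 5.71 to 7.91 CPM in MEIS2-KO (median 6.6) and from 7.46 to 9.47 CPM in ctrl-KO (median 8.74). The MEIS2-KO libraries were the low ones and overlapped the others in part. The log2 difference between MEIS1-KO and MEIS2-KO was 0.46 (SE 0.09), with an edgeR adjusted p of 0.114, and the adjusted p was 0.00419 with DESeq2, 0.0229 without both end libraries and 0.0659 with the GC offset. Against ctrl-KO, the log2 fold change was 0.09 in MEIS1-KO (edgeR adjusted p = 0.774) and -0.37 in MEIS2-KO (edgeR adjusted p = 0.00835). It was the single tested gene within 1 Mb of MEIS2.

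NID2, a protein of basement membranes, had a log2 difference of 0.28 between MEIS1-KO and MEIS2-KO (SE 0.05, edgeR adjusted p = 0.0811), and its adjusted p was 0.00284 with DESeq2 and 0.000603 with the GC offset. DESeq2 also called CEACAM1 (-0.71) and PVRL4 (-0.71), both of which had an adjusted p above 0.1 with edgeR. These genes were named after their values were seen. Within 1 Mb of MEIS1, the tested genes MEIS1-AS3 and ETAA1 were not called between the knockouts (edgeR adjusted p = 0.949 and 0.963).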
